A study of Mus musculus with 11 samples.

Results

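The 9 genes described here encode transcription factors that set up and maintain the epidermal lineage: Trp63, Klf4, Klf5, Grhl1, Grhl3, Ovol1, Gata3, Tfap2c and Sox9. They were chosen by name and with earlier results of these data known, so that a count over them is a description, and all 9 were measured, out of 20352 genes, by 96 probesets that the array annotation assigns to a single gene. The arrays held 5 keratoacanthomas, which are squamous skin tumours built of keratinocytes, and 6 normal skins. All 5 keratoacanthomas came from K14-Cre;Zmiz1 double transgenic mice, as did normal skin 1 and 2; normal skin 3 and 4 carried the K14-Cre transgene alone, and normal skin 5 and 6 carried that of Zmiz1 alone. Every animal thus carried at least 1 of the transgenes and none was a mouse without a transgene. In K14-Cre mice the keratin 14 promoter, active in basal keratinocytes, drives the recombinase, so that it acts in the epithelium and not in the dermis or muscle of the same piece. The protein made from Zmiz1 is a transcriptional co-activator. Ages, and whether the pieces came from separate animals, were not given in the sources used here, so that p-values measure the spread between these arrays. The question, named in the series title, is how the tumours differ from normal skin.

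As background, Trp63 encodes p63, a relative of p53 that keeps the basal layer able to proliferate and stratify. Its transcripts start at an upstream promoter, which gives the TA forms with a full activation domain, or at an internal promoter, which gives the deltaN forms that prevail in basal keratinocytes. Klf5 is a zinc finger factor of proliferating epithelium and Klf4, its close relative, acts in the suprabasal layers and is needed for the skin barrier. Grhl1 and Grhl3 belong to the grainyhead family, which serves cell adhesion, wound closure and barrier formation, and Ovol1 is a zinc finger repressor that favours exit from proliferation as keratinocytes differentiate. Gata3 acts in the inner root sheath of the hair follicle and in the epidermis, and also in T cells. Tfap2c, also known as AP-2 gamma, acts early in the commitment to epidermis together with its relative Tfap2a, and Sox9 marks the outer root sheath and stem cells of the follicle.

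All values are log2 levels from the deposited table, in which array medians lay between 6.22 and 6.27, and a gene's level is the median over its probesets. Pairs of tumour arrays correlated at 0.943 to 0.960, pairs of normal arrays at 0.890 to 0.950, and pairs across the groups at 0.801 to 0.915. The pieces held other cell types in different proportions. The 10 skeletal muscle markers averaged 5.66 to 7.46 in the tumours and 10.6 to 11.8 in normal skin, and the 8 fibroblast markers 7.24 to 8.36 and 8.54 to 9.33. The 11 measured genes of a pan-epithelial panel, named further below, averaged 8.2 to 8.57 in the tumours and 7.26 to 8.11 in normal skin. The 12 measured hair shaft keratins stood at 7.73 in keratoacanthoma 4, at 8.87 and 8.58 in normal skin 1 and 3, and at 5.86 to 6.09 on the other arrays. In such bulk tissue, fewer cells of a type and less RNA per cell cannot be told apart.

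Of the 9 factors, 4 were higher in keratoacanthoma and none was lower (limma, adjusted p below 0.05 over all genes), where 14.5% of all genes were called higher and 10.8% lower. The 4 were Klf5, Grhl3, Ovol1 and Trp63, with log2 differences of 1.31, 1.00, 0.98 and 0.71. In these 4 genes all 5 tumours lay above all 6 normal skins, as was so for 9.66% of all genes (6.31% had all tumours below all normal skins). The remaining members, Klf4, Grhl1, Gata3, Tfap2c and Sox9, differed by -0.17 to 0.16 and did not pass the threshold. All 4 calls held when any of the 11 arrays was left out. With the mean over probesets in place of the median 6 of the 9 were called higher, these 4 with Klf4 and Tfap2c, where 18% of all genes were called higher and 15.8% lower.

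**Figure D1:**
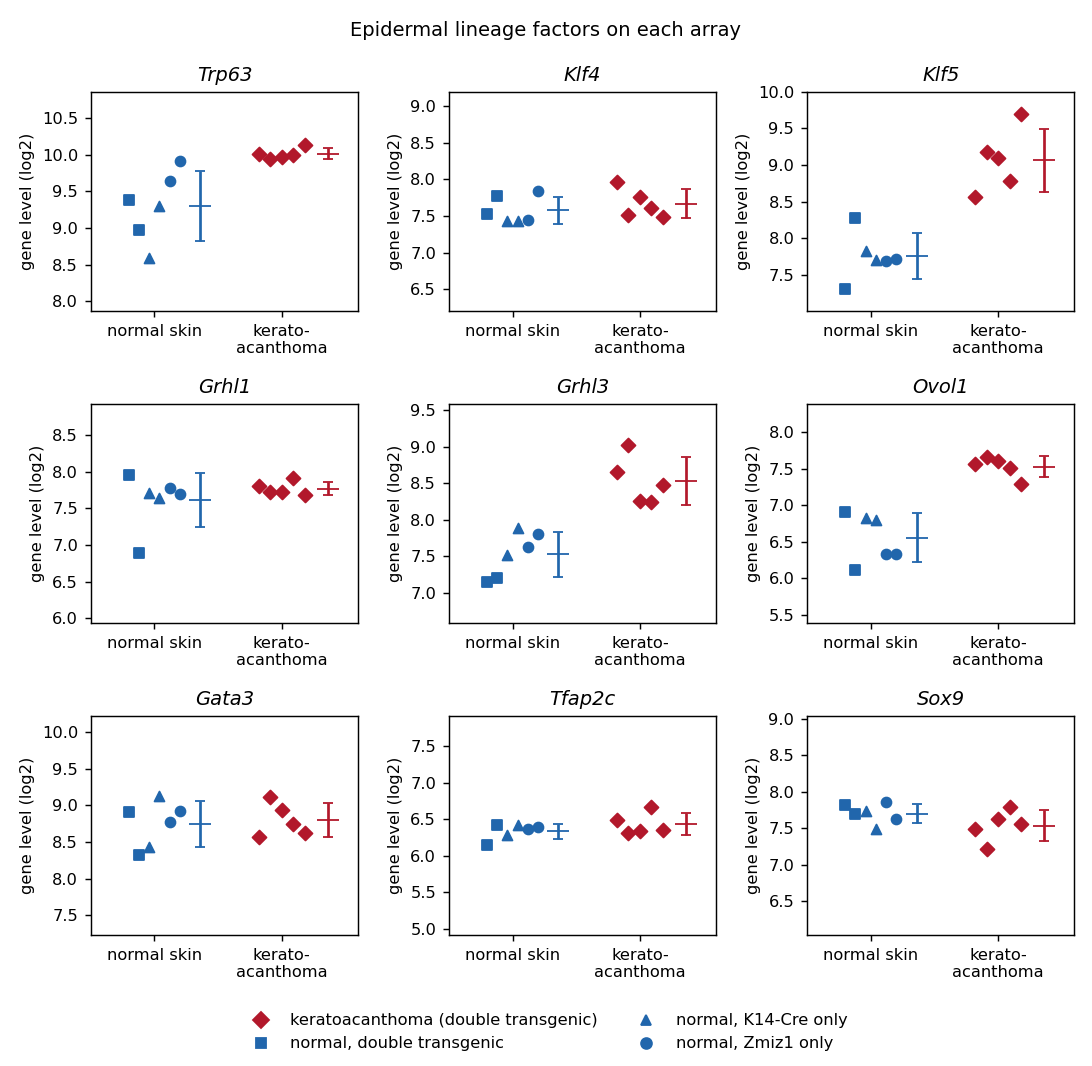
Gene level on the log2 scale (y axis) of each of the 9 factors on the 6 normal skin arrays (blue, symbol by genotype) and the 5 keratoacanthoma arrays (red diamonds), with bars for mean and SD; every panel spans 3 log2 units. Trp63, Klf5, Grhl3 and Ovol1 show no overlap between the groups, while the groups overlap for the other 5.

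Trp63 was higher in the tumours and its values lay closer together there than in normal skin. It stood at 10.01, 9.95, 9.97, 9.99 and 10.14 in keratoacanthoma 1 to 5, and in normal skin its lowest, median and highest values were 8.59, 9.35 and 9.92. No normal skin reached the tumours, though normal skin 6 came close to them and normal skin 3 was lowest. The SD was 0.08 (n = 5) in tumour and 0.48 (n = 6) in normal skin. All tumours share the double transgenic genotype, whereas the normal skins pool genotypes. Their Trp63 means were 9.18 in double transgenic, 8.95 in K14-Cre-only and 9.78 in Zmiz1-only skin. The part of genotype in the wider spread was not tested. The difference between tumour and normal skin was 0.71 (SE 0.19, limma adjusted p = 0.017), or 1.64-fold. The mean over probesets gave a smaller difference, 0.31 (adjusted p = 0.037). With the 4 skins of single transgenic mice as the only reference the call was lost (0.65, adjusted p = 0.056), and so it was without the 3 arrays highest in hair keratins (0.56, adjusted p = 0.058), an alternative chosen after the data were seen.

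The 19 probesets of Trp63 did not move together, which the median over them does not show. In order of their numbers, the first 3 (10434816, 10434817 and 10434818) had lower means in the tumours, with log2 differences of -1.13, -0.94 and -2.50, while all 16 that follow had higher means there, by 0.24 to 1.45. Probeset 10434818 fell from 6.13 ± 0.72 (SD, n = 6) in normal skin to 3.62 ± 0.54 (n = 5) in keratoacanthoma (limma adjusted p = 0.0007), and 10434816 fell from 6.42 ± 0.72 to 5.30 ± 0.17 (adjusted p = 0.028). Probeset 10434817 did not pass (adjusted p = 0.055). Of the other 16, 6 were called higher, among them 10434832 (difference 1.45, adjusted p = 0.0091) and 10434823 (1.05, adjusted p = 0.0074). Over all probesets of the array, 8.29% were called higher and 6.98% lower. All 5 tumours lay above all normal skins in 9 of the 19 probesets and below them in 2, where this held for 6.21% and 5.22% of all probesets. The call of 10434816 was lost without keratoacanthoma 1, 2, 3 or 5 (adjusted p up to 0.072) and against double transgenic skin only (0.10). The call of 10434818 held under each of these, but that probeset is itself removed by a filter on dim probesets.

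Measured against the median of the gene on the same array, 10434818 fell by 3.21 (limma adjusted p = 0.0046) and 10434816 fell by 1.84 (adjusted p = 0.024), where this test called 2.48% of probesets lower and 1.62% higher. None of the other 17 passed it. Averaged over the first 3 probesets, a set chosen after the values were seen, the tumours stood at 4.94, 4.38, 4.73, 4.57 and 4.53. Normal skin 1 to 6 stood at 5.62, 7.19, 6.44, 6.12, 5.93 and 5.60 on the same average, and all were above all tumours. Averaged over the other 16, the order was the opposite, with 10.07 to 10.18 in the tumours and 9.05 to 9.93 in normal skin. The skeletal muscle markers moved the same way as the first 3 probesets between the groups, and normal skin 2 was highest in both (muscle list 11.8). Within the groups the order of the arrays in the muscle list otherwise differed. Normal skin 3 was next in the first 3 probesets but stood at 10.8 in the muscle list, below normal skin 5 at 11.3. Keratoacanthoma 4 was the tumour highest in the muscle list (7.46) but not in the first 3 probesets (4.57). The fibroblast markers also averaged lower in all tumours than in any normal skin. They stood at 8.57, 9.23, 8.99, 9.33, 8.59 and 8.54 in normal skin 1 to 6. In keratoacanthoma 1 to 5 they stood at 7.24, 7.79, 8.36, 8.11 and 7.87. Normal skin 2, 3 and 4 were highest in both, whereas keratoacanthoma 1, the highest tumour in the first 3 probesets, was the lowest in fibroblast markers. The part of muscle or fibroblasts in the fall of the first 3 probesets was not tested. The tumour values of 10434818 lay below the 25th percentile of probeset values (4.88 to 4.95 by array), so that the size of its fall depends on dim values. Genome positions of the probesets were not available here, and it was therefore not determined which Trp63 exons or promoters the first 3 represent.

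**Figure D2:**
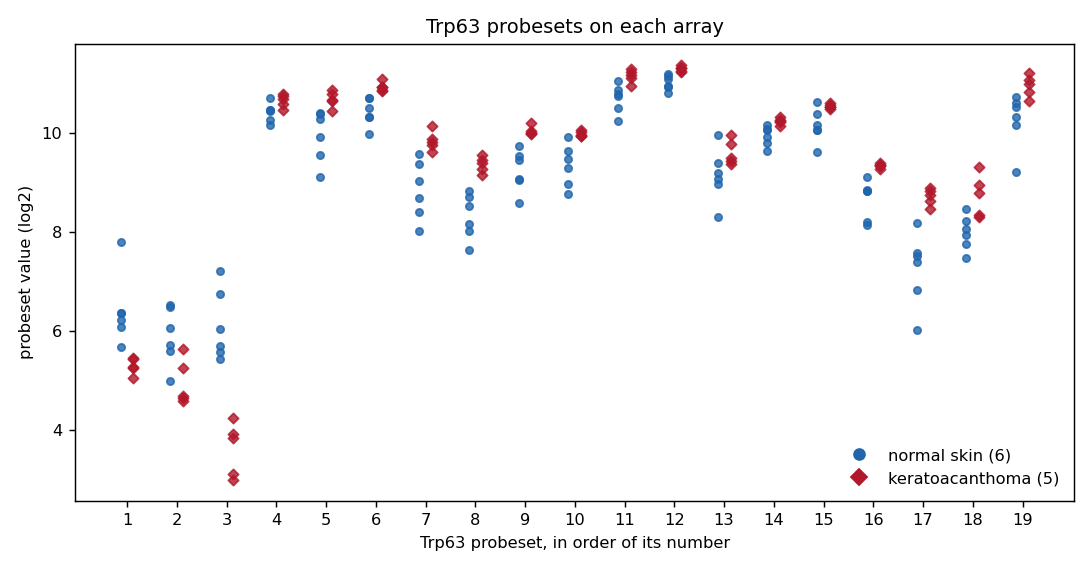
Value of each of the 19 Trp63 probesets (log2, y axis) on the 6 normal skin arrays (blue circles) and the 5 keratoacanthoma arrays (red diamonds), with probesets in order of their number on the x axis. Probesets 1 to 3 have lower tumour means, with differences of -0.94 to -2.50, while probesets 4 to 19 have higher tumour means.

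Klf5 was higher in all 5 tumours than in any normal skin. It stood at 8.56, 9.18, 9.10, 8.78 and 9.70 in keratoacanthoma 1 to 5, against a lowest, median and highest value of 7.31, 7.71 and 8.27 in normal skin. Keratoacanthoma 5 was highest and normal skin 2 was nearest to the tumours. The difference was 1.31 (SE 0.20, limma adjusted p = 0.00045), or 2.48-fold. The mean over its probesets gave 0.73 (adjusted p = 0.00010). Its 7 probesets split by number as well: the first 3 changed by -0.25 to 0.01 and none was called, whereas the last 4 (10416781 to 10416784) rose by 0.81 to 2.10, all 4 with adjusted p between 0.00085 and 0.0040. Relative to the gene median, 10416779 and 10416780 were lower (-1.56 and -1.30, adjusted p = 0.0072 and 0.012).

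Klf4 was not called by its median level. It stood at 7.97, 7.51, 7.76, 7.62 and 7.49 in keratoacanthoma 1 to 5 and at 7.43, 7.49 and 7.84 (lowest, median and highest) in normal skin, so that the groups overlapped. Its change of 0.09 had a 95% interval from -0.17 to 0.35 and did not pass (limma, adjusted p = 0.64). The Klf4 level minus the Klf5 level of the same array changed by -1.22 between the groups (95% interval -1.84 to -0.60, exact two-sided permutation p = 0.0022, the smallest that 5 against 6 arrays can give, and 0.0043 adjusted over the 2 pairs of relatives tested). Both this difference and the Klf4 result rest on the summary. Of the 7 Klf4 probesets 6 had higher means in the tumours, 1 of them by only 0.01, and the median of the 7 changes was 0.72. Called higher were 2, 10513012 by 1.02 and 10513011 by 0.80 (limma adjusted p = 0.017 and 0.020). The largest change, 1.36 in 10513013, did not pass (adjusted p = 0.16), nor did that of -0.36 in 10513014 (adjusted p = 0.11). The mean over the 7 in place of the median gave 0.58 (adjusted p = 0.020). With means for both genes, an alternative added after the data were seen, Klf4 minus Klf5 changed by -0.15 (95% interval -0.62 to 0.32, exact permutation p = 0.52), so that the pair was not shown to differ in its change.

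The grainyhead pair differed in its change under both summaries. Grhl3 stood at 8.66, 9.02, 8.26, 8.24 and 8.48 in keratoacanthoma 1 to 5 and at 7.15, 7.57 and 7.89 (lowest, median and highest) in normal skin, with normal skin 1 and 2 lowest. The difference was 1.00 (SE 0.18, limma adjusted p = 0.0011), or 2.00-fold. Of its 17 probesets, 13 were called higher and none lower, the largest rise being 2.41 (10517414). Probeset 10517407 differed by -0.32 (adjusted p = 0.18), and relative to the gene median it fell by 1.32 (adjusted p = 0.0038). On that relative scale 10517411 fell by 0.92 (adjusted p = 0.023), though its own difference was 0.08 (adjusted p = 0.76). Probeset 10517414 rose by 1.40 relative to the gene median (adjusted p = 0.010). Grhl1 stood at 7.81, 7.73, 7.73, 7.91 and 7.69 in keratoacanthoma 1 to 5. In normal skin its lowest value, 6.90 in normal skin 2, was apart from the remaining 5 skins, which ran from 7.65 to 7.96. The groups overlapped, the difference was 0.16 (95% interval -0.19 to 0.50, adjusted p = 0.52) and none of its 16 probesets passed. Grhl3 minus Grhl1 rose by 0.85 in the tumours (95% interval 0.31 to 1.38, exact permutation p = 0.0043, also adjusted over the 2 pairs), and by 1.17 with means over probesets (95% interval 0.83 to 1.52, adjusted p = 0.0043, exact).

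The promoters of these relatives are shown because the genes are close kin yet differed in their change. They are 300-base windows at the start site, on the strand of the gene, from a RefSeq table on GRCm38.p6 that was given with promoters of 4 of the 9 members (Klf4, Grhl1, Grhl3 and Gata3). Capitals mark CACCC or its complement GGGTG, the short core that Klf factors bind.
Grhl3, chr4:135573583-135573882, minus strand: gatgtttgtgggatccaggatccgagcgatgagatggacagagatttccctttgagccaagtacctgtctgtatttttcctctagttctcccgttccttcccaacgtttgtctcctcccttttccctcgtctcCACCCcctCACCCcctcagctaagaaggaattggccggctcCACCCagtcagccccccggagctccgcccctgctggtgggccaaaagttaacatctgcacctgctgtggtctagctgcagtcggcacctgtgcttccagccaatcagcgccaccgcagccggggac
Grhl1, first start, chr12:24572037-24572336, plus strand: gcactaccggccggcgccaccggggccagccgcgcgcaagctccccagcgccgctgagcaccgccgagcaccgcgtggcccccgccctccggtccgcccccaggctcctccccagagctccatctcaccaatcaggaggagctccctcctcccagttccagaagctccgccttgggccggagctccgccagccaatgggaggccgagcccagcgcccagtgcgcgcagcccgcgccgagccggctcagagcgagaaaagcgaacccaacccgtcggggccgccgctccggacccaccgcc
Grhl1, second start, chr12:24580469-24580768, plus strand: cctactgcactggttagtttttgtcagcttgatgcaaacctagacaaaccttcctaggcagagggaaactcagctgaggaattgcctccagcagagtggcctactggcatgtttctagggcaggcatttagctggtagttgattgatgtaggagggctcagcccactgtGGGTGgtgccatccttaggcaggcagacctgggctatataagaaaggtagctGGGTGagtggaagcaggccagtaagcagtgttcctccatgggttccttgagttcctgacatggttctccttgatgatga
The Grhl3 promoter held 3 matches to CACCC on either strand, and the 2 Grhl1 promoters 0 and 2; such a match is in 57.5% of all 32851 promoters of this length. None of the 3 held TATAAA, found in 13.6% of all promoters on the gene's strand or its complement, or the grainyhead site AACCGGTT, found in 0.146%. The first Grhl1 promoter was the richer in G and C, at 75.3% with 35 CG pairs, against 58.3% and 12 in Grhl3 and 51.3% and 0 in the second Grhl1 promoter. These are descriptions of the letters in these windows, and binding was not measured.

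Ovol1 was higher in all tumours, at 7.57, 7.66, 7.61, 7.52 and 7.30 in keratoacanthoma 1 to 5 against 6.11, 6.57 and 6.92 (lowest, median and highest) in normal skin. Normal skin 2 was lowest and normal skin 1 came nearest to the tumours. The difference was 0.98 (SE 0.15, limma adjusted p = 0.00055), or 1.97-fold. Of its 7 probesets 3 were called higher, 10465107, 10465109 and 10465110 by 1.78, 1.58 and 0.99, and none was called lower. Probeset 10465113 differed by -0.39 (limma adjusted p = 0.13), and relative to the gene median it fell by 1.37 (adjusted p = 0.014).

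Gata3, Tfap2c and Sox9 did not differ beyond the spread between arrays. Gata3 stood at 8.57, 9.12, 8.94, 8.74 and 8.62 in keratoacanthoma 1 to 5 and from 8.32 to 9.12 in normal skin (difference 0.05, 95% interval -0.29 to 0.40, limma adjusted p = 0.84). None of its 6 probesets passed. Markers of other cells that express it were read beside it. The 10 measured T cell markers averaged 5.76 to 6.13 in the tumours and 5.66 to 6.21 in normal skin, with Il7r called higher and Cd3g lower. The 11 inner root sheath genes averaged 6.01 to 8.77 and 5.37 to 9.64, with keratoacanthoma 4 and normal skin 1 and 3 high. Apart from these 3 arrays the tumours averaged 6.01 to 6.46 and the normal skins 5.37 to 5.48. In the fit on all arrays, 1 of the 11 genes, trichohyalin (Tchh), was called, higher by 2.98 (limma adjusted p = 0.040). Its groups overlapped, with a highest value of 11.6 in the tumours and 11.9 in normal skin. The part of these cells in the Gata3 values was not tested.

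Tfap2c stood at 6.49, 6.32, 6.34, 6.67 and 6.35 in keratoacanthoma 1 to 5 and from 6.15 to 6.42 in normal skin (difference 0.10, 95% interval -0.12 to 0.31, limma adjusted p = 0.52). Of its 10 probesets, 10479001 and 10479003 were called higher, by 0.66 each (adjusted p = 0.0082 and 0.041). Probeset 10479003 is dim, with a mean of 4.42 in normal skin beside a 25th percentile of 4.88 to 4.95 by array. The mean over probesets gave a called difference of 0.25 (adjusted p = 0.023). Sox9 stood at 7.50, 7.21, 7.63, 7.79 and 7.56 in keratoacanthoma 1 to 5 and from 7.49 to 7.86 in normal skin (difference -0.17, 95% interval -0.41 to 0.08, adjusted p = 0.33). None of its 7 probesets passed, and the tumour with the lowest value was keratoacanthoma 2.

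**Figure D3:**
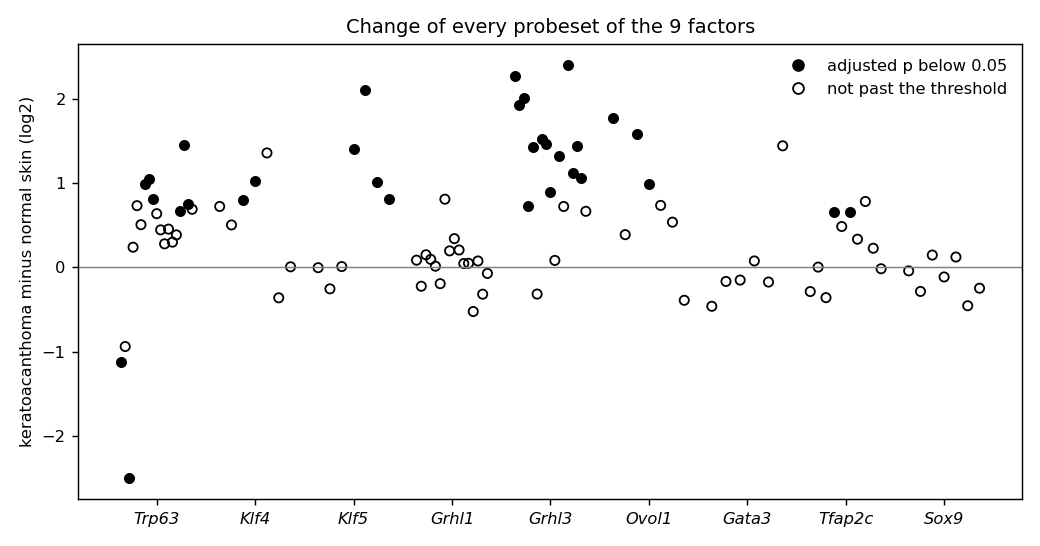
Change of each of the 96 probesets of the 9 factors, keratoacanthoma minus normal skin on the log2 scale (y axis), grouped by gene and in order of their number from left to right; filled points passed the limma test over all probesets. Grhl3 has 13 of 17 filled points, all above 0, while Trp63 has filled points on both sides, 6 above and 2 below.

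Against tumour-free skin of the same double transgenic genotype the same 4 factors were called higher and none lower, where 10.6% of all genes were called higher and 6.93% lower. The 2 normal skins used here are also among the 6 above, and the tumours are the same, so that this is no independent result. The differences were 1.36 for Grhl3 (limma adjusted p = 0.0022), 1.27 for Klf5 (0.016), 1.02 for Ovol1 (0.0062) and 0.83 for Trp63 (0.015). Leaving out 1 of the 2 reference arrays changed calls; the fit then assumes that the lone skin varies like the other groups. Without normal skin 2, Trp63 (0.63, adjusted p = 0.18) and Ovol1 (0.62, 0.071) were not called, and without normal skin 1, Klf5 was not called (0.79, 0.11) while Grhl1 was (0.88, 0.0031). Klf4 was called with the mean over probesets (0.99, adjusted p = 0.0015).

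Among the normal skins, 0 of the 9 factors differed between double transgenic and single transgenic mice (limma, adjusted p below 0.05), where 0.0147% of all genes were called. At an unadjusted p below 0.05 only Grhl3 stood out, with a difference of -0.54, double minus single transgenic (95% interval -1.01 to -0.06, unadjusted p = 0.031, adjusted p = 0.45). Its mean was 7.17 in the 2 double transgenic skins, 7.70 with K14-Cre only and 7.71 with Zmiz1 only. Without normal skin 1, which leaves normal skin 2 alone in its group and assumes that it varies like the others, 1 factor, Grhl1, was called lower.

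The same comparison was made relative to epithelial genes. The panel comprised Cdh1, Dsp, Jup, Pkp3, Esrp1, Esrp2, St14, Ap1m2, Rab25, Cldn7 and Spint1, genes of adhesion, splicing, sorting and proteolysis that epithelia share. Its mean was 0.64 higher in the tumours; 6 of the 11 rose (Jup, Pkp3, Esrp1, Ap1m2, Rab25 and Spint1) and none fell. Subtracting that mean array by array moved the median change of all genes from -0.04 to -0.68. On this scale 1 factor was called higher, Klf5 (0.67, limma adjusted p = 0.023), where 2.6% of all genes were. Grhl3 (0.37, adjusted p = 0.12), Ovol1 (0.34, 0.13) and Trp63 (0.07, 0.76) kept their sign but were not called. The others, Klf4, Grhl1, Gata3, Tfap2c and Sox9, were called lower, with differences of -0.48 to -0.80, where 70.6% of all genes were, so that this count says nothing particular to them.

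**Figure D4:**
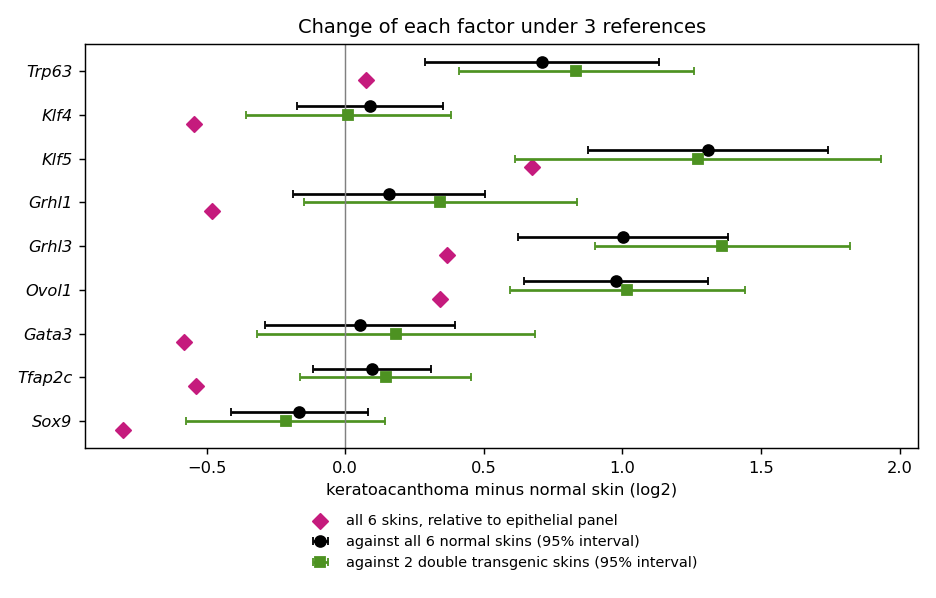
Difference between keratoacanthoma and normal skin for each factor (x axis, log2), against all 6 normal skins (black, with 95% interval), against the 2 double transgenic skins (green, with 95% interval) and, against all 6, relative to the pan-epithelial panel (pink, point value). Klf5, Grhl3, Ovol1 and Trp63 lie to the right of 0 under all 3, at 0.67, 0.37, 0.34 and 0.07 in the last, and the other 5 lie to the left of 0 relative to the panel.

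Companion factors of the epidermis went both ways. Of 43 measured genes of a list of 45, 12 were higher and 6 lower, with a median change of -0.03 beside -0.04 over all genes. Over all genes 14.5% were called higher and 10.8% lower, the shares against which this and the following list counts stand. The ETS factors Ehf and Elf5, of epithelial differentiation, rose by 2.10 and 1.33, the AP-2 factor Tfap2a by 1.26 and Prdm1, the repressor Blimp-1, by 0.80. Tfap2b fell by 1.30, so that within the AP-2 family Tfap2a rose, Tfap2b fell and Tfap2c did not pass. The nuclear factor I genes Nfix and Nfib fell by 1.18 and 1.11, and the POU factor Pou2f3 of the suprabasal layers by 0.70. The third grainyhead gene, Grhl2, differed by 0.38 (limma adjusted p = 0.11).

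Of 23 measured genes linked to p63, 6 were higher and 4 lower (median -0.01), beside 14.5% and 10.8% over all genes. Krt14, a keratin of the basal layer, rose by 1.19 and Itga6, an integrin of the hemidesmosome, by 1.24. Bhlhe40, a transcription repressor, rose by 1.25 and the cell cycle inhibitor Cdkn1a by 0.82. Dst and Col17a1, both parts of the hemidesmosome, fell by 1.37 and 0.38, as did the growth factor receptor Fgfr2 by 0.50 and the cell cycle inhibitor Cdkn1c by 0.52. Satb1, Dlx3 and Zfp750 stand in both this list and the one above, and of these Zfp750 was called.

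Among 20 genes linked to the Grhl and Klf factors in adhesion and barrier formation, 11 were higher and 2 lower (median 0.79), beside the same 14.5% and 10.8%. Sprr1b and Sprr1a, both precursors of the cornified envelope, rose by 2.97 and 1.99, filaggrin (Flg) by 2.19 and the desmosomal cadherin Dsg1b by 1.90. Its neighbour Dsg1a and loricrin (Lor), the main envelope protein, fell by 0.79 and 0.77. The Dsg1 and the Sprr1 genes are close in sequence and their probes may share signal. Rab25, Esrp1 and Cdh1 stand also in the epithelial panel.

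Hair follicle factors were called in both directions. Of 19 measured of 20, 3 were lower and 1 higher, beside 10.8% and 14.5% over all genes. Foxc1, Nfatc1 and Lhx2, factors of follicle stem cells, fell by 0.77, 0.60 and 0.46, and Sox21 of the hair cuticle rose by 0.51 (median of the list -0.25). Among 16 measured genes of the follicle stem cells and outer root sheath, the compartment that Sox9 marks, 4 were lower and 2 higher (median -0.43).

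**Figure D5:**
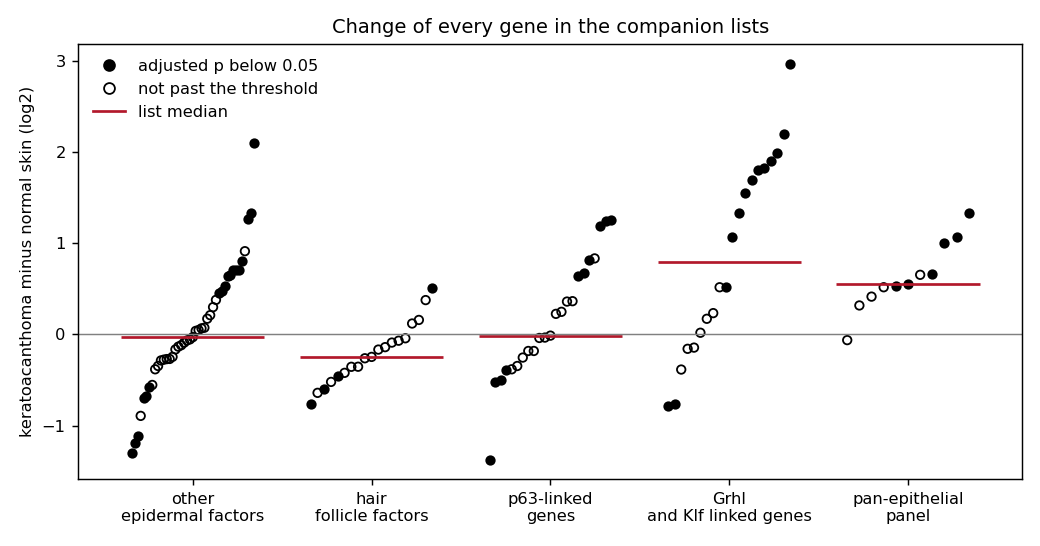
Change of each measured gene of 4 companion lists and of the pan-epithelial panel, keratoacanthoma minus normal skin on the log2 scale (y axis), sorted within each list; filled points passed the limma test over all genes and red lines are list medians. The medians are -0.03, -0.25, -0.01, 0.79 and 0.56 from left to right, and 6 of the 11 panel genes are filled, all above 0.

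The genes most like each member over the 11 arrays were sought among 7351 or 7352 genes by Pearson correlation, given with no test, since the arrays fall into groups and share their tissue makeup. For Trp63 they were Otud4 (r = 0.978) and Ralgapa2 (0.967). For Klf5 they were Alas1 (0.973), the first enzyme of haem synthesis, and Fetub (0.966), for Grhl3 Bin3 (0.974) and the stress kinase gene Map2k4 (0.955), and for Ovol1 Smpdl3b (0.978) and the isoprenoid enzyme Idi1 (0.971). Those of Grhl1 were Hmgcs1 (0.924), a cholesterol synthesis enzyme, and Arap2 (0.919). The best matches were lower for Sox9 (Atp13a2, 0.886), Gata3 (Ccdc122, 0.879), Klf4 (Snx8, 0.840) and Tfap2c (Trappc12, 0.788).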

How the data were processed

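Per the labels, total RNA of 11 snap-frozen tissues was amplified, and the cDNA made from it was labelled with biotin for the arrays. The authors deposited log2 values of 241576 probesets; the submitters' processing notes name RMA, Partek and build mm9, and settings were not given in the sources used here. RMA scales arrays to a common distribution, so that a change is relative to the other RNA of the piece. Symbols were updated through RefSeq (Tcfap2c to Tfap2c). Of 212097 probesets naming 1 gene, 590 that repeated another of the gene were dropped. The gene level is the median over probesets, with Trp63 also given by probeset. Tests used limma 3.58.1 (lmFit, eBayes) in R 4.3.3 with Benjamini-Hochberg adjustment over all genes or probesets: 2 groups, and 4 groups for genotypes; pairs of relatives were compared by exact permutation. Probesets relative to their gene were tested in genes of at least 4. The fit was tested on simulated data. Tables and figures used Python 3.11.15.

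The members and lists were chosen with earlier results of these data known. Named genes were all members, up to 4 called genes per direction in each companion list, and the 2 best correlated genes per member (Pearson, at least 4 probesets, SD at least 0.3), of which the text gives 1 for Sox9, Gata3, Klf4 and Tfap2c; others, such as Grhl2, Zfp750, the epithelial panel, Il7r, Cd3g, Tchh and the lower Klf, Grhl, Ovol1 and Tfap2c probesets, were chosen after their values were seen. Alternatives changed the summary, dim probesets or genes (below the 25th percentile), scaling, variance model, array weights, reference, block, covariate or panel, or left out an array.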

Additional observations from a re-analysis of the deposited data

Results flagged for a closer look

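Within a group, 4 of 56 sets of values had 1 array far from the rest by Dixon's test, where chance flags about 1 in 20. Grhl1 was lowest in normal skin 2 at 6.90, with the next skin at 7.65. The same array was highest for Trp63 probeset 10434816, at 7.80 with the next at 6.37, and lowest for Trp63 probeset 10434834, at 9.22 with the next at 10.17. Keratoacanthoma 5 was highest for Trp63 probeset 10434824, at 10.21 with the next at 10.04.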

How the results depend on the processing

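The 4 calls of Klf5, Grhl3, Ovol1 and Trp63 against all normal skin held with each array left out (4 higher and 0 lower throughout). Relative to the epithelial panel, 1 was higher and 5 lower, beside 2.6% and 70.6% of all genes. The sign turned there for Klf4 (-0.55), Grhl1 (-0.48), Gata3 (-0.58) and Tfap2c (-0.54). The Gata3 difference, never called elsewhere, also turned against single transgenic skin (-0.012) and ranged from -0.032 to 0.13 without 1 array, and that of Tfap2c turned without the 3 arrays highest in hair keratins (-0.023). Against same-genotype skin the count ranged from 2 to 4 higher without 1 array; the sign turned for Klf4 with the hair shaft covariate (-0.045), and without 1 array Klf4 ranged from -0.11 to 0.13, Grhl1 from -0.19 to 0.88 and Gata3 from -0.11 to 0.48. Between normal double and single transgenic skin 0 to 1 factors were lower without 1 array.

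With means over probesets, an alternative added later, the change of Klf4 minus Klf5 was -0.15 (exact adjusted p = 0.52). With medians and without 1 array it ranged from -1.42 to -1.02, and that of Grhl3 minus Grhl1 from 0.70 to 0.95, all called.

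Of the Trp63 probesets, 12 were higher with quantile normalization and 2 against single transgenic skin, and 1 was lower with the replicate block or against double transgenic skin only. Without 1 array 3 to 9 were higher and 1 to 3 lower: 3 higher and 1 lower without keratoacanthoma 2 or 5, and 1 lower without keratoacanthoma 3. The title numbers were used as that block on 10 arrays. Deviations of same-numbered arrays from their group means correlated at -0.18 to 0.10, which shows no pairing by number but cannot exclude one. The block changed no call of a gene among the 9 factors.

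Among the lists, the other epidermal factors had 11 lower with the mean over probesets, 5 higher against double transgenic skin, and 3 higher and 27 lower relative to the panel. Hair follicle factors had 5 lower with the mean over probesets, 0 higher and 1 lower against double transgenic skin, 0 higher and 17 lower relative to the panel, 2 higher with the hair shaft covariate and 0 to 1 higher without 1 array. The p63-linked genes had 2 lower against double transgenic skin, and 2 higher and 12 lower relative to the panel. The Grhl and Klf linked genes had 1 lower against double transgenic skin and 7 lower relative to the panel. These list counts against double transgenic skin come from a fit with only 2 normal skins. The share over all genes in that fit is not given. With the mean over probesets 18% of all genes were called higher and 15.8% lower. Relative to the panel 2.6% of all genes were called higher and 70.6% lower. The causes were not tested, except that subtracting the panel lowers every gene alike. Dim values limit Trp63 probeset 10434818, whose tumour values lie below the 25th percentile, and Tfap2c probeset 10478999, at 2.90 in both groups. They also limit Tfap2c probeset 10479003, with a mean of 4.42 in normal skin, and Trp63 probeset 10434817, with a median of 4.69 in the tumours.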

Other observations

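Trp63 was the member that differed most between the 2 kinds of single transgenic normal skin, in a comparison added after the data were seen. Its mean was 8.95 in the 2 skins with K14-Cre only and 9.78 in the 2 with Zmiz1 only, a difference of -0.84 (95% interval -1.35 to -0.33, limma unadjusted p = 0.0039, adjusted p = 0.31) that did not pass over all genes. Both Zmiz1-only skins lay above both K14-Cre-only skins. The hair shaft keratins were high in 1 of the K14-Cre-only skins, normal skin 3, and its part in the difference was not tested.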
